A study of Mus musculus with 12 samples.

Results

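The subject is how a truncated Asxl1 and the T618I form of the receptor CSF3R acted together on gene expression, that is, where cells with both constructs departed from the sum of the changes that each construct made alone. All 12 of the 12 libraries of the series were used, in 4 groups of 3. All were HoxB8 cells, a mouse bone marrow progenitor line immortalised with Hoxb8, grown with stem cell factor and estrogen and sampled 24 h after estrogen was taken away. Every population carried 2 vectors, pMIG and pMICH, each with an insert or empty. Asxl1-MT2/T618I cells carried pMIG-Asxl1-MT2 and pMICH-CSF3R-T618I, Empty/T618I cells carried pMIG-Empty and pMICH-CSF3R-T618I, Asxl1-MT2/Empty cells carried pMIG-Asxl1-MT2 and pMICH-Empty, and Empty/Empty cells carried both vectors with no insert. Both inserts were overexpressed from the vectors on top of the cells' own genes, and all groups share the immortalised line, the vectors and the estrogen removal. The study's title places the design in CSF3R-mutated myeloproliferative neoplasms and differentiation.

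CSF3R binds granulocyte colony-stimulating factor, the main signal for neutrophil production, and works through JAK kinases and STAT factors. The T618I change lets the receptor signal without its ligand and is known from chronic neutrophilic leukaemia. ASXL1 is a chromatin protein that partners the histone deubiquitinase BAP1 and is linked to Polycomb repression. Truncating ASXL1 mutations are frequent in myeloid malignancies. As neutrophil precursors mature they make primary, then secondary granule proteins, then surface receptors and cytosolic proteins of the mature cell, while ribosome production and progenitor genes go down.

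The quantity described is the interaction on the log2 scale, the Asxl1-MT2 effect in T618I cells (Asxl1-MT2/T618I over Empty/T618I) minus the Asxl1-MT2 effect in cells with the empty pMICH vector (Asxl1-MT2/Empty over Empty/Empty). A value of 0 means that the fold changes multiplied, a positive value that the level was above additivity, and a negative value that it was below. Genes were called at an adjusted p under 0.05 in edgeR's quasi-likelihood test, over the 11578 gene symbols that passed a filter on low counts. Levels are CPM (counts scaled to a common library total, with TMM factors), listed for libraries A, B and C of a group, the letters of the deposited columns.

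Total counts ran from 9341984 to 10252291 per library. The TMM factors were 0.919 to 0.959 in the Asxl1-MT2/T618I libraries and 1.01 to 1.03 in the other 9. The labels do not state separate cultures for the 3 libraries of a group, and the p-values therefore cover only library-to-library spread, possibly technical. For the library titled Empty/Empty 3 the genotype field names the T618I vector, against its title, and the deposited columns carry letters that nothing links to the title numbers. The groups here follow the titles. Socs3, a feedback inhibitor that STAT3 induces, stood at 264, 228 and 196 CPM in Asxl1-MT2/T618I, at 167, 151 and 176 CPM in Empty/T618I, at 10.7, 10.4 and 11.1 CPM in Asxl1-MT2/Empty and at 13.8, 11.9 and 12.4 CPM in Empty/Empty. All 3 Empty/Empty columns thus sat with the Asxl1-MT2/Empty columns for this gene and far below every T618I column. Marker lists of other cell types were summed in each library, as CPM without TMM factors. The lymphoid list summed to 36.1 to 38.7 in Asxl1-MT2/T618I, 50.6 to 94.6 in Empty/T618I, 25.3 to 31.7 in Asxl1-MT2/Empty and 27.7 to 31.9 in Empty/Empty, and 7, 5, 5 and 3 of its 14 members were at 0 in all libraries of these groups. The dendritic list summed to 18.6 to 26.8 over all 12 libraries. The stromal and endothelial list was higher, at 190 to 244 in Asxl1-MT2/T618I, 241 to 277 in Empty/T618I, 333 to 357 in Asxl1-MT2/Empty and 286 to 319 in Empty/Empty.

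The construct genes were themselves off additivity. Asxl1 stood at 1086, 1009 and 919 CPM in Asxl1-MT2/T618I, at 145, 134 and 167 CPM in Empty/T618I, at 1833, 1678 and 1723 CPM in Asxl1-MT2/Empty and at 116, 125 and 117 CPM in Empty/Empty. Both groups with the Asxl1 vector were high, and Asxl1-MT2/T618I lay below Asxl1-MT2/Empty in every library, with a log2 interaction of -1.11 ± 0.13 (SE; edgeR adjusted p = 2.29e-05). Csf3r stood at 1688, 1334 and 967 CPM in Asxl1-MT2/T618I, at 452, 456 and 386 CPM in Empty/T618I, at 320, 307 and 253 CPM in Asxl1-MT2/Empty and at 337, 324 and 232 CPM in Empty/Empty. The Asxl1-MT2/T618I libraries were above all others, and the log2 interaction was 1.65 ± 0.24 (SE; edgeR adjusted p = 0.000134). Whether reads of the constructs were counted to the mouse genes is not given in the sources used here, so these levels cannot be split into vector and endogenous RNA. The unequal Asxl1 and Csf3r levels moved with the results below, and their part in them was not tested.

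The interaction was called for 2273 genes, 19.6% of those tested. Of these, 1635 (14.1% of those tested) were above additivity and 638 (5.51%) below. At an unadjusted p under 0.05 there were 3894 genes. Scaling by library totals alone gave 1312 above and 1393 below, so the share above additivity was 48.5% under that scaling, against 71.9% with TMM factors. The 2 scalings differ by 0.105 in the median log2 interaction over all genes, and that median was 0.02 with TMM. Departures were larger above additivity than below, with a median absolute log2 interaction of 0.85 among genes called above, 0.52 among genes called below and 0.27 over all genes tested. Of the called genes, 716 had an absolute log2 interaction of at least 1, namely 653 above and 63 below.

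What Asxl1-MT2 did depended on the background. On its own it changed 1.86% of genes, 143 higher (1.24%) and 72 lower (0.622%), whereas in T618I cells it changed 43.9%, 2939 higher (25.4%) and 2143 lower (18.5%). The 215 genes called in Empty cells rest on single libraries more than the 5082 called in T618I cells. There were 60 without Asxl1-MT2/Empty A, 106 without Asxl1-MT2/Empty B, and 101, 104 and 136 without Empty/Empty A, B and C, and over all omissions of 1 library the counts ran from 60 to 276 in Empty cells and from 4029 to 5408 in T618I cells. Among the 2273 genes with a called interaction, 2109 (92.8%) had an Asxl1-MT2 effect that was called in T618I cells and not in Empty cells, and 31 (1.36%) had the reverse. In absolute size the Asxl1-MT2 effect was the larger in T618I cells for 95.1% of them, against 78.3% of all genes tested. The T618I effect differs between cells with and without Asxl1-MT2 by the same interaction. It was called for 49.8% of genes in cells with Asxl1-MT2 and for 33.5% without. Of all genes tested, T618I alone raised 17.6% and lowered 15.9%. In absolute size the T618I effect was the larger beside Asxl1-MT2 for 71.3% of genes with a called interaction, against 61.9% of all genes tested. Across genes, which are not independent replicates, the Asxl1-MT2 effects in the 2 backgrounds, which share no library, correlated with Pearson's r = 0.18, and the T618I effects with and without Asxl1-MT2 with r = 0.82. The Asxl1-MT2 effects were the smaller, with an SD of 0.71 in T618I cells and 0.41 in Empty cells, against 1.31 and 1.08 for the T618I effects with and without Asxl1-MT2. In 1237 of the 1635 genes above additivity the 3 Asxl1-MT2/T618I libraries all lay above the other 9, and over all genes tested this held for 18.6%. In 366 of the 638 genes below additivity they all lay below the other 9, and over all genes tested this held for 11.3%. The call itself used these libraries. The shares among called genes in this paragraph therefore follow in part from the selection, and they only describe the called genes.

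**Figure D1:**
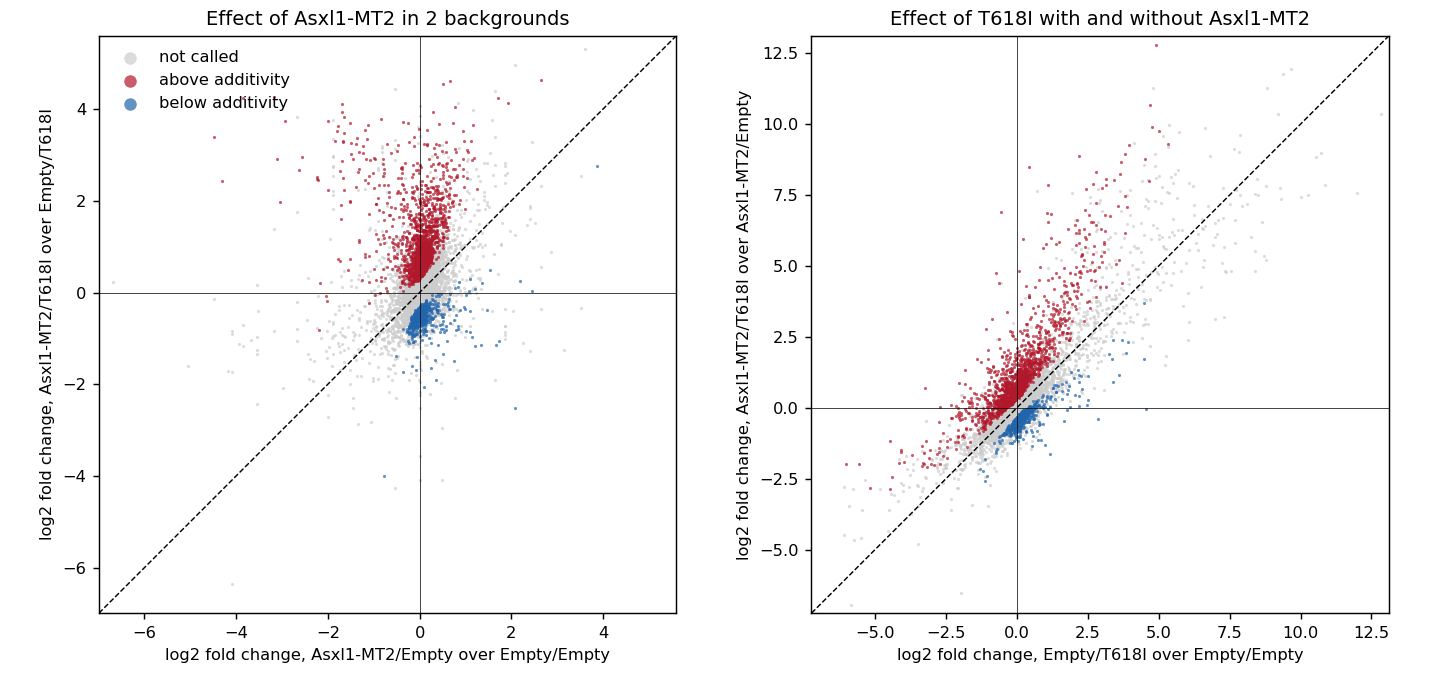
Log2 fold changes of the 11578 genes tested. Left, the Asxl1-MT2 effect in T618I cells (vertical) against that in Empty cells (horizontal). Right, the T618I effect beside Asxl1-MT2 (vertical) against that without it (horizontal). Each point is a gene, red where called above additivity (1635), blue where called below (638), grey where not called, and the dashed diagonal marks equal effects. In the left plot the points spread mainly along the vertical axis, with an SD of 0.71 in T618I cells and 0.41 in Empty cells.

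Called genes were sorted by the sum of the effects of the constructs alone, the additive expectation. Synergy means that the departure had the sign of that sum, and antagonism the opposite sign. The expectation and the interaction share the Asxl1-MT2/Empty, Empty/T618I and Empty/Empty libraries, so the split is a description with no test of its own. There were 958 synergistic genes (42.1% of those called), 801 above additivity and 157 below. Another 276 (12.1%) fell short of the expected change without leaving its direction, and 1039 (45.7%) ended on the other side of Empty/Empty from the expected change. The side was taken from the sign of the fitted change, without requiring a called difference from Empty/Empty. In this class Cebpe was not called against Empty/Empty (log2 0.16 (edgeR adjusted p = 0.238)), whereas Tinagl1 was (log2 1.83 (edgeR adjusted p = 1.21e-08)). Neither construct alone was called for 1090 of the 2273 genes (48%), 486 of them in the synergy class and 596 in the class past zero, and the expectation of such genes rests on small sums. T618I alone was called for 1077 (47.4%), Asxl1-MT2 alone for 25 (1.1%) and each of the 2 for 81 (3.56%). Of the genes with a called interaction, 658 were raised by T618I alone, and 426 of these went above additivity and 232 below. A further 500 were lowered by T618I alone, and 462 of these went above additivity and 38 below. These counts too share libraries with the interaction.

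**Figure D2:**
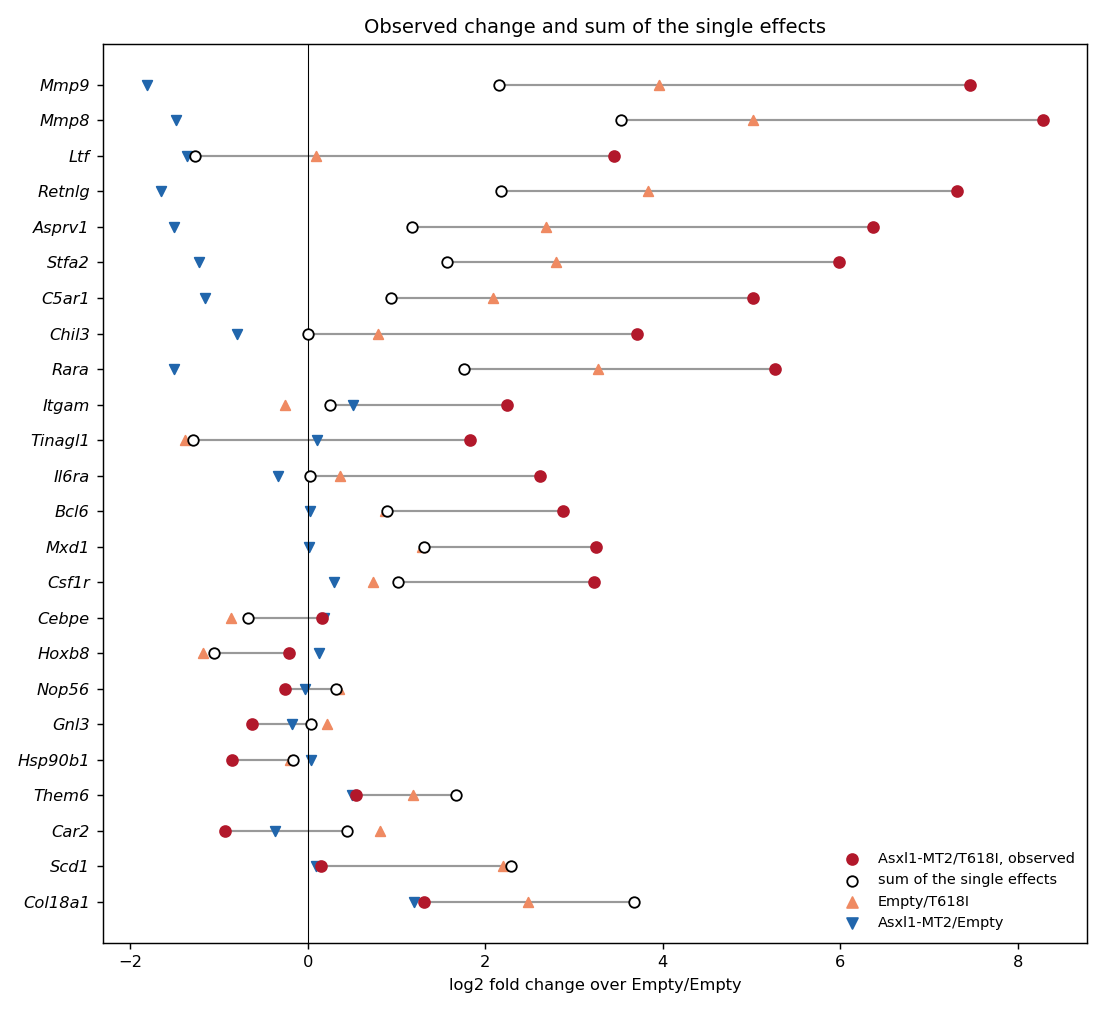
Log2 fold change over Empty/Empty (horizontal) for 24 genes named in the text or shown as examples (vertical). Red discs are Asxl1-MT2/T618I as observed, open circles the sum of the effects of the constructs alone, upward triangles Empty/T618I and downward triangles Asxl1-MT2/Empty. The grey line between the disc and the circle is the log2 interaction, which runs to the right for Mmp8 (4.75) and Ltf (4.72) and to the left for Scd1 (-2.14) and Col18a1 (-2.37).

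Genes of the mature neutrophil moved as a group. Of 33 tested members, 30 were above additivity, none was below, and all 30 were synergistic. Over all genes tested 14.1% were above and 5.51% below, the shares to set beside this list and those that follow. The median log2 interaction of the list was 2.00, against 0.02 over all genes tested. Asxl1-MT2 raised all 33 members in T618I cells (median log2 change 2.34), while in Empty cells it raised 4 and lowered 1 (median 0.01). Over all genes tested it raised 25.4% and lowered 18.5% in T618I cells, and raised 1.24% and lowered 0.622% in Empty cells. T618I alone raised 27 (median 1.35), against 17.6% of all genes tested, and beside Asxl1-MT2 its median effect was 3.40. Among the 3 members that were not called were Cd101, at low counts, and Slpi with a log2 interaction of 0.50.

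S100a9, a subunit of the abundant cytosolic protein calprotectin, stood at 8270, 6319 and 5358 CPM in Asxl1-MT2/T618I, at 1444, 1114 and 1165 CPM in Empty/T618I, at 450, 382 and 350 CPM in Asxl1-MT2/Empty and at 398, 261 and 486 CPM in Empty/Empty. The Asxl1-MT2/T618I libraries did not overlap any other, Empty/T618I came next, and the 2 groups without T618I overlapped. The log2 interaction was 2.37 ± 0.27 (SE; edgeR adjusted p = 1.82e-05), and that of its partner S100a8 was 2.24 ± 0.30 (SE; edgeR adjusted p = 6.68e-05). Mxd1, a repressor that opposes Myc and is induced as myeloid cells mature, stood at 525, 428 and 362 CPM in Asxl1-MT2/T618I, at 111, 114 and 113 CPM in Empty/T618I, at 47.6, 46 and 45.9 CPM in Asxl1-MT2/Empty and at 46.4, 42.7 and 49 CPM in Empty/Empty. Here Asxl1-MT2 alone left the level within the Empty/Empty spread, and the log2 interaction was 1.94 ± 0.15 (SE; edgeR adjusted p = 2.27e-06). Itgam, the integrin chain CD11b of neutrophils and macrophages, stood at 1201, 1064 and 927 CPM in Asxl1-MT2/T618I, at 194, 157 and 213 CPM in Empty/T618I, at 363, 289 and 314 CPM in Asxl1-MT2/Empty and at 212, 219 and 246 CPM in Empty/Empty. T618I alone gave no called change (log2 -0.26 (edgeR adjusted p = 0.103)), whereas beside Asxl1-MT2 the T618I effect was 1.72 (edgeR adjusted p = 2.7e-09), giving a log2 interaction of 1.99 ± 0.17 (SE; edgeR adjusted p = 3.54e-06).

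Mmp9, the gelatinase of tertiary granules, stood at 1015, 750 and 529 CPM in Asxl1-MT2/T618I, at 81.5, 51.4 and 68.5 CPM in Empty/T618I, at 1.68, 1.09 and 0.898 CPM in Asxl1-MT2/Empty and at 5.34, 2.29 and 5.36 CPM in Empty/Empty. It was nearly silent without T618I and had a log2 interaction of 5.32 ± 0.54 (SE; edgeR adjusted p = 1.03e-05). Retnlg, a secreted resistin-like protein of neutrophils, averaged 270 ± 78.3 CPM in Asxl1-MT2/T618I, 24.2 ± 3.59 CPM in Empty/T618I, 0.529 ± 0.155 CPM in Asxl1-MT2/Empty and 1.69 ± 1.09 CPM in Empty/Empty (SD, n = 3 each) and had a log2 interaction of 5.13 ± 0.69 (SE; edgeR adjusted p = 8.14e-05). The formyl peptide receptor Fpr2, a chemoattractant receptor, averaged 87 ± 26.3 CPM in Asxl1-MT2/T618I, 11.2 ± 3.78 CPM in Empty/T618I, 0.264 ± 0.0582 CPM in Asxl1-MT2/Empty and 1.62 ± 0.664 CPM in Empty/Empty (SD, n = 3 each), with a log2 interaction of 5.51 ± 0.74 (SE; edgeR adjusted p = 7.55e-05). Cxcr2, the receptor for neutrophil-attracting chemokines, averaged 702 ± 178 CPM in Asxl1-MT2/T618I, 193 ± 29.7 CPM in Empty/T618I, 19.8 ± 2.21 CPM in Asxl1-MT2/Empty and 24.1 ± 3.89 CPM in Empty/Empty (SD, n = 3 each). Its log2 interaction was 2.14 ± 0.24 (SE; edgeR adjusted p = 2.25e-05). Padi4, the enzyme that converts histone arginine to citrulline, averaged 270 ± 51 CPM in Asxl1-MT2/T618I, 32.4 ± 2.46 CPM in Empty/T618I, 25.5 ± 6.82 CPM in Asxl1-MT2/Empty and 17.2 ± 5.77 CPM in Empty/Empty (SD, n = 3 each) and had a log2 interaction of 2.48 ± 0.29 (SE; edgeR adjusted p = 3.09e-05). For Mmp9, Retnlg and Fpr2 the 2 groups without T618I were at or under a few CPM, so part of the log2 interaction rests on few counts in those groups. Fpr1, the related formyl peptide receptor, is named with its counts only: 1071, 851 and 649 reads in Asxl1-MT2/T618I, 96, 77 and 87 in Empty/T618I, 0, 0 and 0 in Asxl1-MT2/Empty, and 3, 2 and 3 in Empty/Empty.

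**Figure D3:**
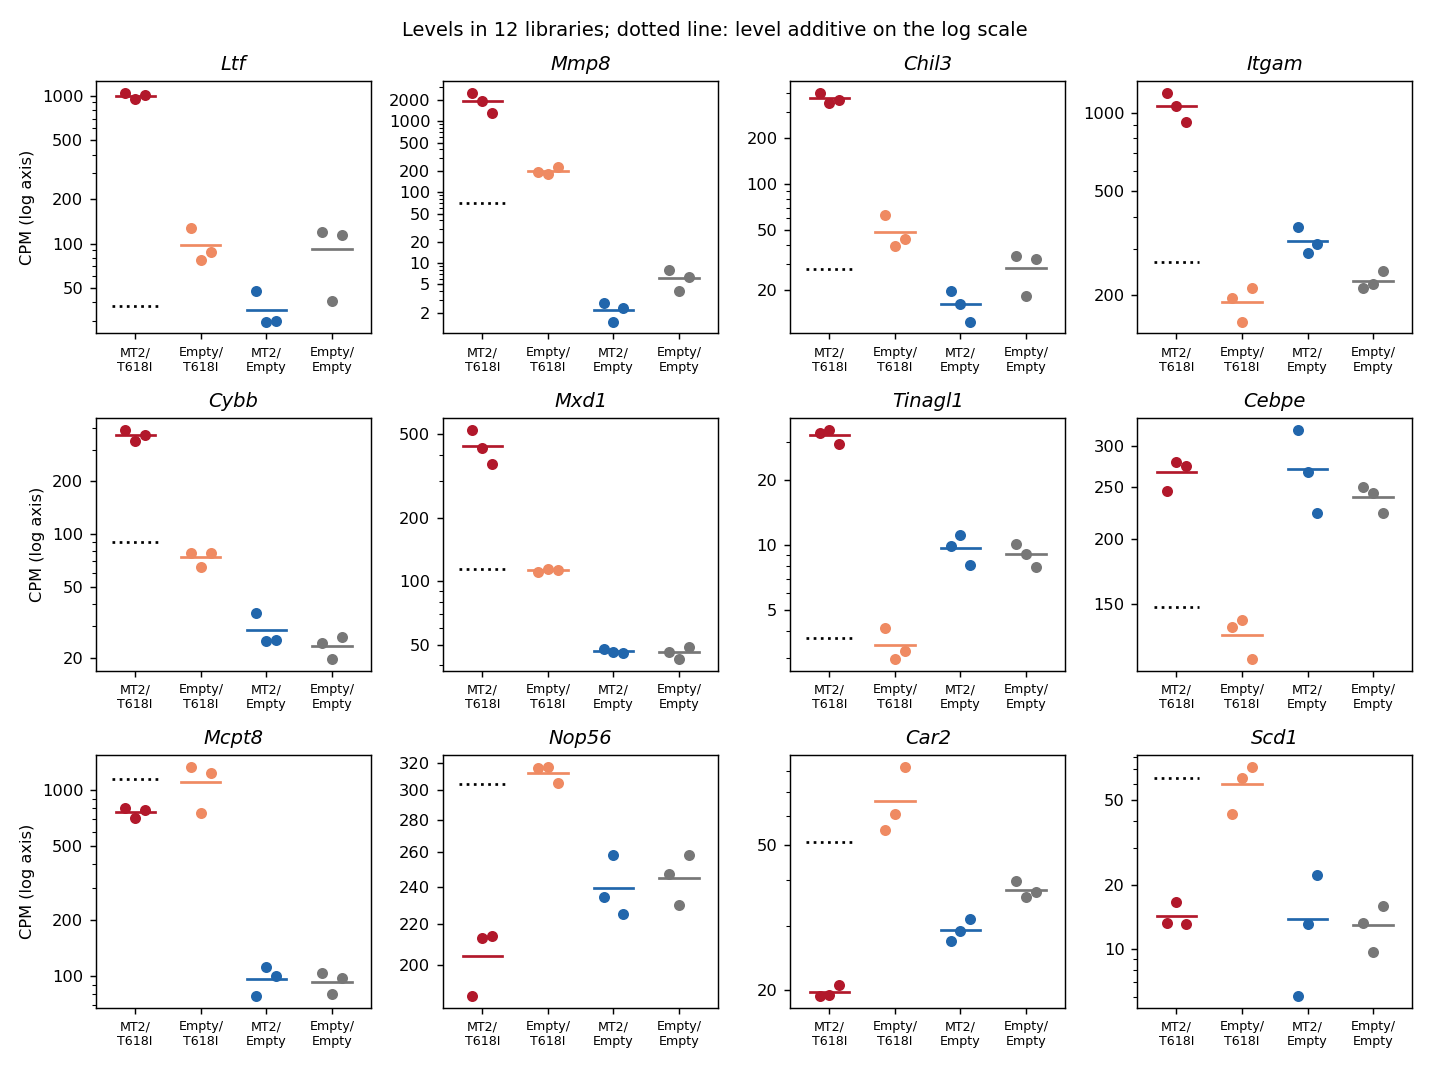
CPM on a log axis (vertical) of 12 genes in the 4 groups (horizontal). Points are the 3 libraries, solid lines group means and the dotted line the level at which the 2 changes would multiply. Mcpt8 was chosen for the plot after its values were seen. The Asxl1-MT2/T618I points lie above the dotted line for Ltf, Mmp8, Chil3, Itgam, Cybb, Mxd1, Tinagl1 and Cebpe, and below it for Nop56, Car2 and Scd1.

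In the secondary granule list 17 of 19 tested members were above additivity, with none below and a median log2 interaction of 2.15. The list is not confined to granule proteins and includes Ltb4r1, which is counted again among the lipid mediators. Unlike the mature neutrophil list, its called members were split between synergy (8) and antagonism (9). The class follows only the sign of the additive expectation, which was near 0 for some members. It rounded to 0 for Chil3 and was -0.24 for Ltb4r1, both classed as antagonistic, and 0.25 for Itgam of the mature neutrophil list, classed as synergistic. T618I alone raised 7 of the 19 and lowered 6 (median log2 change 0.25), against 17.6% raised and 15.9% lowered over all genes tested. Asxl1-MT2 in T618I cells raised all 19 (median 2.60), against 3 raised and 1 lowered in Empty cells (median 0.19). In summed CPM, the mature neutrophil list made up 20149 to 28972 in Asxl1-MT2/T618I, 6288 to 7407 in Empty/T618I, 3653 to 4355 in Asxl1-MT2/Empty and 3194 to 3665 in Empty/Empty. The secondary granule list made up 15063 to 16861, 4598 to 5366, 4304 to 5538 and 3584 to 4283 in the same groups. In bulk RNA, fewer or more cells of a type and less or more RNA per cell cannot be told apart.

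Ltf, lactoferrin, an iron-binding granule protein, stood at 1050, 949 and 1007 CPM in Asxl1-MT2/T618I, at 128, 77.9 and 87.6 CPM in Empty/T618I, at 47.5, 29.5 and 30.1 CPM in Asxl1-MT2/Empty and at 119, 41 and 115 CPM in Empty/Empty. T618I alone gave no called change (log2 0.09 (edgeR adjusted p = 0.836)) and Asxl1-MT2 alone lowered it (log2 -1.36 (edgeR adjusted p = 0.0233)). With both constructs it lay far above every other library, and the log2 interaction was 4.72 ± 0.41 (SE; edgeR adjusted p = 3.54e-06). Mmp8, neutrophil collagenase, stood at 2536, 1900 and 1323 CPM in Asxl1-MT2/T618I, at 195, 180 and 229 CPM in Empty/T618I, at 2.77, 1.48 and 2.3 CPM in Asxl1-MT2/Empty and at 8.05, 4.08 and 6.4 CPM in Empty/Empty. The sum of the effects of the constructs alone was 3.53 and the observed log2 change over Empty/Empty was 8.28, a log2 interaction of 4.75 ± 0.42 (SE; edgeR adjusted p = 3.54e-06). Chil3, a chitinase-like protein, stood at 401, 344 and 360 CPM in Asxl1-MT2/T618I, at 63, 39.2 and 43.6 CPM in Empty/T618I, at 19.7, 16.4 and 12.4 CPM in Asxl1-MT2/Empty and at 33.6, 18.3 and 32.3 CPM in Empty/Empty. Its log2 interaction was 3.72 ± 0.29 (SE; edgeR adjusted p = 2.27e-06), with T618I alone at 0.79 and Asxl1-MT2 alone at -0.80.

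Lcn2, which binds bacterial siderophores, averaged 3460 ± 512 CPM in Asxl1-MT2/T618I, 841 ± 81.1 CPM in Empty/T618I, 347 ± 61 CPM in Asxl1-MT2/Empty and 305 ± 50 CPM in Empty/Empty (SD, n = 3 each) and showed synergy with a log2 interaction of 1.85 ± 0.19 (SE; edgeR adjusted p = 1.21e-05). Ngp, neutrophilic granule protein, stood at 3554, 3860 and 3981 CPM in Asxl1-MT2/T618I, at 508, 332 and 335 CPM in Empty/T618I, at 1204, 686 and 768 CPM in Asxl1-MT2/Empty and at 821, 401 and 562 CPM in Empty/Empty. Empty/T618I overlapped Empty/Empty, and the log2 interaction was 2.70 ± 0.33 (SE; edgeR adjusted p = 3.5e-05). Camp, the precursor of the antimicrobial peptide cathelicidin, stood at 22.7, 28.2 and 33.3 CPM in Asxl1-MT2/T618I, at 6.06, 3.53 and 2.61 CPM in Empty/T618I, at 19.7, 14.5 and 11.4 CPM in Asxl1-MT2/Empty and at 18, 9.94 and 22.2 CPM in Empty/Empty. T618I alone lowered it (log2 -2.02 (edgeR adjusted p = 7.02e-05)), Asxl1-MT2 reversed that in T618I cells, and the log2 interaction was 2.91 ± 0.41 (SE; edgeR adjusted p = 0.000104). Fcnb, ficolin B, a lectin of the complement system, stood at 47, 66 and 86.8 CPM in Asxl1-MT2/T618I, at 11.5, 4.01 and 4.49 CPM in Empty/T618I, at 313, 254 and 206 CPM in Asxl1-MT2/Empty and at 119, 118 and 117 CPM in Empty/Empty. It was highest with Asxl1-MT2 alone and almost lost with T618I alone, and in cells with both it came back only in part, with a log2 interaction of 2.18 ± 0.36 (SE; edgeR adjusted p = 0.000457) and a change over Empty/Empty of -0.82.

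Promoter windows of these lists are shown because their members moved together. They run from 250 bases before to 50 after the gene start, from RefSeq on GRCm38.p6, and 8920 of the 11578 genes tested had one. The printed genes are the 2 of each list with the smallest interaction p whose window held at least 1 of 4 marked motifs. Capitals mark TTGCNNAA (a C/EBP-type word), GAGGAAG (a PU.1-type word), TTCNNNGAA (a STAT-type word) and CACGTG (the E-box bound by Myc and related factors), on either strand.
Ltf, chr9:111019042-111019341, plus strand: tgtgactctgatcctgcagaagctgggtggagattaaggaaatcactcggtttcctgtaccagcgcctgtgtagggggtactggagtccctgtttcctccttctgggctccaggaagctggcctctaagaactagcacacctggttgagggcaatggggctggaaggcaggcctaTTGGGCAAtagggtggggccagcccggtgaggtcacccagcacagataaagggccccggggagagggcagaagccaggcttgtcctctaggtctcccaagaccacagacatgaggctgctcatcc
Chil3, chr3:106167515-106167814, minus strand: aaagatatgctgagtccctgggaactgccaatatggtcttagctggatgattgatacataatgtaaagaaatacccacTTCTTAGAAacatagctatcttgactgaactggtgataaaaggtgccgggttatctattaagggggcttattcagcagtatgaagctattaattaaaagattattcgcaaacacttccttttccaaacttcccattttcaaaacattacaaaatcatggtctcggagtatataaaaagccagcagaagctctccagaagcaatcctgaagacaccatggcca
S100a9, chr3:90695672-90695971, minus strand: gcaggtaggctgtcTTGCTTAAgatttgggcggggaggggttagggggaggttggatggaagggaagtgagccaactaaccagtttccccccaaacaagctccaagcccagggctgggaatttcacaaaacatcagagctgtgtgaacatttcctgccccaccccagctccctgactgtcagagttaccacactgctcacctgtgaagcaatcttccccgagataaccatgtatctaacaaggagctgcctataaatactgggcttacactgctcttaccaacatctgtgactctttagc
Itgam, chr7:128062390-128062689, plus strand: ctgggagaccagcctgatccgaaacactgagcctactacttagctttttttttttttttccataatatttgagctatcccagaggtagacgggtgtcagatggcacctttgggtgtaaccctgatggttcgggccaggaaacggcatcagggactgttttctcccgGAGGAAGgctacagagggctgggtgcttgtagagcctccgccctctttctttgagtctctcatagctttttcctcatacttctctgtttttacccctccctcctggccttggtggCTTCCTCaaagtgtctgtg
Ltf and S100a9 each held 1 TTGCNNAA match, Itgam held 2 GAGGAAG matches and Chil3 held 1 TTCNNNGAA match. TTGCNNAA was in 8 of 25 mature neutrophil windows (32%) and 6 of 16 secondary granule windows (37.5%), against 8.49% of all windows, 11.1% of windows of genes above additivity and 9.14% of those below. GAGGAAG was in 28% of the mature neutrophil and 37.5% of the secondary granule windows, against 13.9% of all windows, 17.6% above and 12.8% below. With the lists in the same order, TTCNNNGAA was in 12% and 6.25%, against 7.1% of all windows, 6.06% above and 7% below. The broader word TTNCNNAA, which contains TTGCNNAA, was in 72% and 75% of the 2 lists and in 31.3% of all windows. GAGGAAGT, which contains GAGGAAG, was in 4% and 25%, against 3.37%. AGATAA was in 20% and 25%, against 6.35%, and TGACTCA in 8% and 0%, against 3.65%. The 8 motifs were chosen with the expression results known, and a match is a description of letters, not a bound site.

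Genes of the oxidative burst and phagocytosis followed. Of 22 tested, 17 were above additivity and none below, 14 of them synergistic, and the median log2 interaction was 1.26. The lists share some members. Itgam and Itgb2 are also counted in the mature neutrophil list and Cyba in the secondary granule list. Cybb, the catalytic subunit of the phagocyte NADPH oxidase, stood at 390, 338 and 362 CPM in Asxl1-MT2/T618I, at 78.5, 65.3 and 78.5 CPM in Empty/T618I, at 35.6, 24.7 and 25.1 CPM in Asxl1-MT2/Empty and at 24.2, 19.6 and 26.1 CPM in Empty/Empty. Asxl1-MT2/T618I lay above Empty/T618I and Empty/T618I above both groups without T618I, which overlapped, and the log2 interaction was 2.00 ± 0.19 (SE; edgeR adjusted p = 6.18e-06). The cytosolic subunits Ncf1 and Ncf4 were not called with either construct alone and had log2 interactions of 0.76 ± 0.12 (SE; edgeR adjusted p = 0.000282) and 0.75 ± 0.14 (SE; edgeR adjusted p = 0.00137). C5ar1, the receptor for the complement fragment C5a, averaged 123 ± 23.3 CPM in Asxl1-MT2/T618I, 16.1 ± 3.31 CPM in Empty/T618I, 1.69 ± 0.594 CPM in Asxl1-MT2/Empty and 3.78 ± 0.734 CPM in Empty/Empty (SD, n = 3 each). Its log2 interaction was 4.08 ± 0.36 (SE; edgeR adjusted p = 3.54e-06). Pirb, an inhibitory receptor of myeloid cells, averaged 439 ± 139 CPM in Asxl1-MT2/T618I, 67.3 ± 12.5 CPM in Empty/T618I, 5.88 ± 0.681 CPM in Asxl1-MT2/Empty and 7.82 ± 2 CPM in Empty/Empty (SD, n = 3 each), with a log2 interaction of 3.12 ± 0.36 (SE; edgeR adjusted p = 2.29e-05). Tlr2, a receptor for bacterial lipoproteins, averaged 135 ± 19.1 CPM in Asxl1-MT2/T618I, 52.3 ± 3.26 CPM in Empty/T618I, 11.9 ± 0.477 CPM in Asxl1-MT2/Empty and 12.4 ± 1.05 CPM in Empty/Empty (SD, n = 3 each), with a log2 interaction of 1.42 ± 0.17 (SE; edgeR adjusted p = 2.69e-05).

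Monocyte and macrophage genes moved the same way, which sets values of another cell type beside the neutrophil result. Of 18 tested, 11 were above additivity and none below, with a median log2 interaction of 1.04. The list summed to 1498 to 2094 CPM in Asxl1-MT2/T618I, 753 to 873 in Empty/T618I, 941 to 1064 in Asxl1-MT2/Empty and 788 to 891 in Empty/Empty, and its part in the neutrophil result was not tested. Mpeg1, a pore-forming protein of phagocytes, stood at 365, 276 and 197 CPM in Asxl1-MT2/T618I, at 45, 31.5 and 48.1 CPM in Empty/T618I, at 44.5, 42.1 and 67.5 CPM in Asxl1-MT2/Empty and at 41.8, 40.7 and 46.2 CPM in Empty/Empty. Neither construct alone was called, and the log2 interaction was 2.49 ± 0.29 (SE; edgeR adjusted p = 3.03e-05). Lgals3, galectin 3, averaged 206 ± 49.4 CPM in Asxl1-MT2/T618I, 29.8 ± 4.1 CPM in Empty/T618I, 3.57 ± 1.34 CPM in Asxl1-MT2/Empty and 3.56 ± 1.94 CPM in Empty/Empty (SD, n = 3 each), with a log2 interaction of 2.78 ± 0.45 (SE; edgeR adjusted p = 0.000333). Ly6c2, a surface protein of inflammatory monocytes, stood at 173, 139 and 115 CPM in Asxl1-MT2/T618I, at 25.6, 17.7 and 12.9 CPM in Empty/T618I, at 238, 170 and 131 CPM in Asxl1-MT2/Empty and at 97.4, 99.1 and 84.4 CPM in Empty/Empty. T618I alone lowered it and Asxl1-MT2 alone raised it, and with both it overlapped the Asxl1-MT2/Empty libraries, a log2 interaction of 1.98 ± 0.30 (SE; edgeR adjusted p = 0.000214). Irf8, the factor that favours the monocyte over the neutrophil fate, averaged 5.36 ± 1.29 CPM in Asxl1-MT2/T618I, 0.917 ± 0.116 CPM in Empty/T618I, 5.93 ± 3.78 CPM in Asxl1-MT2/Empty and 3.78 ± 0.313 CPM in Empty/Empty (SD, n = 3 each), with a log2 interaction of 1.88 ± 0.55 (SE; edgeR adjusted p = 0.0232). Its levels in cells with both constructs and in Empty/Empty cells overlapped.

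Among 15 transcription factors of granulocytes, 6 were above additivity and none below (median log2 interaction 0.32), against 14.1% and 5.51% over all genes tested. Cebpe, the C/EBP factor required for secondary granules, stood at 246, 280 and 275 CPM in Asxl1-MT2/T618I, at 136, 140 and 118 CPM in Empty/T618I, at 322, 268 and 224 CPM in Asxl1-MT2/Empty and at 250, 244 and 224 CPM in Empty/Empty. T618I alone lowered it, and the level with both constructs lay among those without T618I, a log2 interaction of 0.84 ± 0.15 (SE; edgeR adjusted p = 0.00105). Rara, a retinoic acid receptor that drives granulocytic maturation, averaged 84.4 ± 21.5 CPM in Asxl1-MT2/T618I, 21.3 ± 2.39 CPM in Empty/T618I, 0.759 ± 0.3 CPM in Asxl1-MT2/Empty and 2.19 ± 0.286 CPM in Empty/Empty (SD, n = 3 each). It rose with T618I and rose again with both constructs, with a log2 interaction of 3.50 ± 0.44 (SE; edgeR adjusted p = 5.01e-05). Spi1, which encodes PU.1, averaged 635 ± 34.7 CPM in Asxl1-MT2/T618I, 416 ± 26.4 CPM in Empty/T618I, 407 ± 51.7 CPM in Asxl1-MT2/Empty and 386 ± 16.5 CPM in Empty/Empty (SD, n = 3 each). Its log2 interaction was 0.53 ± 0.13 (SE; edgeR adjusted p = 0.00748), and Klf6, a zinc finger factor, had 1.25 ± 0.17 (SE; edgeR adjusted p = 0.000102). Cebpa and Gfi1, which act earlier in the lineage, were not called, with log2 interactions of -0.19 ± 0.14 (SE; edgeR adjusted p = 0.352) and -0.17 ± 0.15 (SE; edgeR adjusted p = 0.465).

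Downstream of the receptor the picture was mixed. Of 25 JAK-STAT targets and feedback genes, 9 were above additivity and 1, the kinase Pim3, below, with a median of 0.36. Over all genes tested the shares were 14.1% above and 5.51% below. In the JAK-STAT list none was below without any of 6 libraries, and 2 were without Asxl1-MT2/T618I C or Empty/T618I C. Bcl6, a repressor that STAT3 can induce, stood at 162, 115 and 92.5 CPM in Asxl1-MT2/T618I, at 34.6, 28.4 and 29.1 CPM in Empty/T618I, at 17.7, 17.1 and 16.5 CPM in Asxl1-MT2/Empty and at 18.7, 15.7 and 16 CPM in Empty/Empty. The log2 interaction was 1.98 ± 0.24 (SE; edgeR adjusted p = 3.54e-05). Stat3 itself averaged 419 ± 40.9 CPM in Asxl1-MT2/T618I, 315 ± 12.1 CPM in Empty/T618I, 222 ± 7.55 CPM in Asxl1-MT2/Empty and 228 ± 9.44 CPM in Empty/Empty (SD, n = 3 each), with a log2 interaction of 0.45 ± 0.11 (SE; edgeR adjusted p = 0.00919), and Socs3 had 0.72 ± 0.17 (SE; edgeR adjusted p = 0.00623). The STAT5 target Cish and the cytokine Osm rose with T618I alone (log2 2.33 and 2.92), while their interactions of 0.04 ± 0.20 (SE; edgeR adjusted p = 0.916) and -0.13 ± 0.20 (SE; edgeR adjusted p = 0.691) were not called. Pim1, a kinase induced by STAT5, had a log2 interaction of -0.10 ± 0.10 (SE; edgeR adjusted p = 0.514) and was not called either. Of 27 immediate early and ERK feedback genes 9 were above and none below (median 0.42), among them the AP-1 factor Fosl2 with 1.88 ± 0.23 (SE; edgeR adjusted p = 3.94e-05). Dusp6, a phosphatase that inactivates ERK, averaged 35.3 ± 8.6 CPM in Asxl1-MT2/T618I, 22 ± 3.16 CPM in Empty/T618I, 20.1 ± 2.57 CPM in Asxl1-MT2/Empty and 31.2 ± 2.27 CPM in Empty/Empty (SD, n = 3 each) and had a log2 interaction of 1.32 ± 0.22 (SE; edgeR adjusted p = 0.000524).

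Inflammatory genes were above additivity in smaller shares. The counts were 7 of 23 for NF-kB targets, cytokines and chemokines (median 0.64), 8 of 20 for interferon response genes (median 0.79) and 3 of 8 for the interleukin 1 family (median 0.54), none of them below. Over all genes tested 14.1% were above and 5.51% below. Nfkbia, the inhibitor of NF-kB that NF-kB itself induces, averaged 154 ± 27 CPM in Asxl1-MT2/T618I, 48 ± 2.5 CPM in Empty/T618I, 38.8 ± 4.09 CPM in Asxl1-MT2/Empty and 32 ± 2.65 CPM in Empty/Empty (SD, n = 3 each), with a log2 interaction of 1.40 ± 0.17 (SE; edgeR adjusted p = 3.81e-05). Ccl6, a myeloid chemokine, averaged 188 ± 41 CPM in Asxl1-MT2/T618I, 26.4 ± 0.376 CPM in Empty/T618I, 9.08 ± 1.57 CPM in Asxl1-MT2/Empty and 5.98 ± 1.57 CPM in Empty/Empty (SD, n = 3 each) and had 2.23 ± 0.28 (SE; edgeR adjusted p = 4.34e-05). Tnf, an inflammatory cytokine, averaged 28.5 ± 1.57 CPM in Asxl1-MT2/T618I, 12.9 ± 1.08 CPM in Empty/T618I, 7.2 ± 1.69 CPM in Asxl1-MT2/Empty and 9.69 ± 1.82 CPM in Empty/Empty (SD, n = 3 each). Neither construct alone was called for it (log2 0.41 with T618I and -0.43 with Asxl1-MT2), and it had a log2 interaction of 1.57 ± 0.23 (SE; edgeR adjusted p = 0.000182). Il1r2, a decoy receptor for interleukin 1, averaged 162 ± 25.1 CPM in Asxl1-MT2/T618I, 56.1 ± 5.63 CPM in Empty/T618I, 8.46 ± 0.358 CPM in Asxl1-MT2/Empty and 7.34 ± 1.58 CPM in Empty/Empty (SD, n = 3 each), with 1.33 ± 0.21 (SE; edgeR adjusted p = 0.000333). Oas3, an interferon-induced sensor of double-stranded RNA, averaged 17.9 ± 3.96 CPM in Asxl1-MT2/T618I, 3.23 ± 0.298 CPM in Empty/T618I, 1.19 ± 0.489 CPM in Asxl1-MT2/Empty and 0.873 ± 0.22 CPM in Empty/Empty (SD, n = 3 each) and had 2.03 ± 0.48 (SE; edgeR adjusted p = 0.0065). Cytokine receptors other than Csf3r had 9 of 22 above and none below (median 0.53). Il6ra, the receptor chain for interleukin 6, averaged 73.4 ± 20.3 CPM in Asxl1-MT2/T618I, 15.4 ± 1.72 CPM in Empty/T618I, 9.49 ± 2.02 CPM in Asxl1-MT2/Empty and 12 ± 1.1 CPM in Empty/Empty (SD, n = 3 each), with a log2 interaction of 2.59 ± 0.27 (SE; edgeR adjusted p = 1.13e-05). Il17ra, a receptor for interleukin 17, averaged 292 ± 67.6 CPM in Asxl1-MT2/T618I, 137 ± 24.1 CPM in Empty/T618I, 36.4 ± 1.4 CPM in Asxl1-MT2/Empty and 55 ± 3.31 CPM in Empty/Empty (SD, n = 3 each), with 1.69 ± 0.21 (SE; edgeR adjusted p = 3.94e-05).

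A further set of genes was lowered by T618I alone, and less or not at all beside Asxl1-MT2. Tinagl1, an extracellular matrix-associated protein, stood at 33.1, 34.4 and 29.5 CPM in Asxl1-MT2/T618I, at 4.13, 2.96 and 3.23 CPM in Empty/T618I, at 9.89, 11.1 and 8.08 CPM in Asxl1-MT2/Empty and at 10.1, 9.15 and 7.94 CPM in Empty/Empty. T618I alone brought it below every Empty/Empty library, with both constructs it lay above all others, and the log2 interaction was 3.13 ± 0.23 (SE; edgeR adjusted p = 1.87e-06). Hk3, a hexokinase of myeloid cells, stood at 385, 369 and 373 CPM in Asxl1-MT2/T618I, at 239, 226 and 236 CPM in Empty/T618I, at 560, 535 and 469 CPM in Asxl1-MT2/Empty and at 502, 516 and 548 CPM in Empty/Empty. The Asxl1-MT2/Empty and Empty/Empty libraries overlapped, and with both constructs it came back part of the way, a log2 interaction of 0.69 ± 0.11 (SE; edgeR adjusted p = 0.000317). Hoxb8, which may include the immortalising gene, stood at 586, 568 and 559 CPM in Asxl1-MT2/T618I, at 332, 242 and 299 CPM in Empty/T618I, at 745, 769 and 646 CPM in Asxl1-MT2/Empty and at 651, 705 and 626 CPM in Empty/Empty. Its log2 interaction was 0.85 ± 0.14 (SE; edgeR adjusted p = 0.000502). Lta4h, an enzyme of leukotriene B4 synthesis, averaged 730 ± 48.2 CPM in Asxl1-MT2/T618I, 422 ± 8.37 CPM in Empty/T618I, 1126 ± 35.1 CPM in Asxl1-MT2/Empty and 935 ± 48.8 CPM in Empty/Empty (SD, n = 3 each), with a log2 interaction of 0.52 ± 0.10 (SE; edgeR adjusted p = 0.00201). Alox5, the lipoxygenase that starts leukotriene synthesis, was not lowered by T618I and averaged 76.1 ± 14.5 CPM in Asxl1-MT2/T618I, 35.9 ± 8.07 CPM in Empty/T618I, 20.1 ± 2.95 CPM in Asxl1-MT2/Empty and 27.8 ± 2.86 CPM in Empty/Empty (SD, n = 3 each). Neither construct alone was called for Alox5 (log2 0.37 with T618I and -0.47 with Asxl1-MT2), and its log2 interaction was 1.55 ± 0.23 (SE; edgeR adjusted p = 0.0002). Of 15 lipid mediator genes 6 were above additivity and none below, against 14.1% and 5.51% over all genes tested. Among these 6, Alox5ap is also counted in the mature neutrophil list and Ltb4r1 in the secondary granule list. The T618I effect was called with opposite signs with and without Asxl1-MT2 in 146 genes, higher beside Asxl1-MT2 and lower without it in 116 and the reverse in 30.

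The Asxl1-MT2 effect was called with opposite signs in the 2 backgrounds in 19 genes, raised in T618I cells and lowered in Empty cells in 12 and the reverse in 7. Vim, the intermediate filament vimentin, stood at 747, 651 and 591 CPM in Asxl1-MT2/T618I, at 484, 397 and 515 CPM in Empty/T618I, at 179, 183 and 163 CPM in Asxl1-MT2/Empty and at 303, 305 and 303 CPM in Empty/Empty. Asxl1-MT2 raised it in T618I cells (log2 0.51 (edgeR adjusted p = 0.00052)) and lowered it in Empty cells (log2 -0.79 (edgeR adjusted p = 0.000464)). Slc2a3, a glucose transporter, averaged 167 ± 26.8 CPM in Asxl1-MT2/T618I, 96.4 ± 8.02 CPM in Empty/T618I, 14.1 ± 2.5 CPM in Asxl1-MT2/Empty and 30.2 ± 3.96 CPM in Empty/Empty (SD, n = 3 each). The Asxl1-MT2 effects were 0.79 in T618I cells and -1.10 in Empty cells. Fyb, an adaptor of integrin signalling, had 0.74 and -1.52 in the same order, and Mfsd6, a membrane transporter-like protein, had 1.72 and -1.11. Hoxa9, a homeobox factor of progenitors, averaged 4.4 ± 2.93 CPM in Asxl1-MT2/T618I, 1.13 ± 0.547 CPM in Empty/T618I, 0.198 ± 0.171 CPM in Asxl1-MT2/Empty and 1.72 ± 0.115 CPM in Empty/Empty (SD, n = 3 each), so its log2 interaction of 5.00 ± 0.88 (SE; edgeR adjusted p = 0.00068) rests on few reads in Asxl1-MT2/Empty. In the other direction Col18a1, a collagen, stood at 9.24, 9.71 and 8.47 CPM in Asxl1-MT2/T618I, at 22.7, 13.3 and 26 CPM in Empty/T618I, at 9.99, 7.3 and 7.98 CPM in Asxl1-MT2/Empty and at 3.62, 3.98 and 3.4 CPM in Empty/Empty. Each construct alone raised it, and with both it was no higher than with Asxl1-MT2 alone, a log2 interaction of -2.37 ± 0.32 (SE; edgeR adjusted p = 7.37e-05), the largest negative value among genes with at least 4 counts in each group and a mean of at least 5 CPM in some group. Them6 was also raised by each construct alone, averaged 18.4 ± 1.69 CPM in Asxl1-MT2/T618I, 28.6 ± 2.9 CPM in Empty/T618I, 17.8 ± 1.16 CPM in Asxl1-MT2/Empty and 12.6 ± 0.625 CPM in Empty/Empty (SD, n = 3 each), and had a log2 interaction of -1.13 ± 0.17 (SE; edgeR adjusted p = 0.00016).

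Below additivity, genes of ribosome production moved as a group. Of 25 genes of the Myc and ribosome biogenesis list, 18 were below and none above, with a median log2 interaction of -0.49. Over all genes tested 5.51% were below and 14.1% above. Asxl1-MT2 lowered all 25 in T618I cells (median log2 change -0.61) and none in Empty cells (median -0.15). Over all genes tested it lowered 18.5% in T618I cells and 0.622% in Empty cells. T618I alone raised 11 and lowered 1 (median 0.23), against 17.6% raised and 15.9% lowered over all genes tested. Of the 18, 14 were antagonistic and 4 synergistic. The list summed to 4585 to 5854 CPM in Asxl1-MT2/T618I, 8537 to 9251 in Empty/T618I, 6106 to 7357 in Asxl1-MT2/Empty and 7172 to 7909 in Empty/Empty. Leaving out 1 library at a time left 12 to 19 of the 25 called below.

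Nop56, a core protein of box C/D ribonucleoproteins that guide ribosomal RNA methylation, stood at 186, 213 and 214 CPM in Asxl1-MT2/T618I, at 316, 317 and 305 CPM in Empty/T618I, at 234, 258 and 225 CPM in Asxl1-MT2/Empty and at 247, 230 and 258 CPM in Empty/Empty. T618I alone raised it, every Asxl1-MT2/T618I library lay below the other 9, and the log2 interaction was -0.58 ± 0.11 (SE; edgeR adjusted p = 0.00171). Gnl3, nucleostemin, stood at 70.2, 78.8 and 82.9 CPM in Asxl1-MT2/T618I, at 129, 149 and 143 CPM in Empty/T618I, at 94.5, 109 and 113 CPM in Asxl1-MT2/Empty and at 119, 110 and 130 CPM in Empty/Empty, with a log2 interaction of -0.67 ± 0.13 (SE; edgeR adjusted p = 0.00187). Dkc1, the pseudouridine synthase of ribosomal RNA, averaged 127 ± 14.8 CPM in Asxl1-MT2/T618I, 205 ± 9.9 CPM in Empty/T618I, 176 ± 13.2 CPM in Asxl1-MT2/Empty and 187 ± 11.2 CPM in Empty/Empty (SD, n = 3 each) and had -0.61 ± 0.13 (SE; edgeR adjusted p = 0.00289). Ncl, nucleolin, averaged 1257 ± 183 CPM in Asxl1-MT2/T618I, 1996 ± 184 CPM in Empty/T618I, 1367 ± 183 CPM in Asxl1-MT2/Empty and 1463 ± 201 CPM in Empty/Empty (SD, n = 3 each). With both constructs Ncl overlapped Empty/Empty, and the log2 interaction was -0.57 ± 0.17 (SE; edgeR adjusted p = 0.0294). Myc itself stood at 166, 206 and 208 CPM in Asxl1-MT2/T618I, at 358, 400 and 296 CPM in Empty/T618I, at 299, 338 and 342 CPM in Asxl1-MT2/Empty and at 400, 408 and 340 CPM in Empty/Empty. It was lower in every Asxl1-MT2/T618I library than in the other 9, with a log2 interaction of -0.63 ± 0.16 (SE; edgeR adjusted p = 0.0104).

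The 2 printed windows of this list each held 1 CACGTG, and the Wdr43 window also held 1 GAGGAAG match. GAGGAAG was in 15% of the windows of the list, against 13.9% of all windows.
Wdr43, chr17:71615965-71616264, plus strand: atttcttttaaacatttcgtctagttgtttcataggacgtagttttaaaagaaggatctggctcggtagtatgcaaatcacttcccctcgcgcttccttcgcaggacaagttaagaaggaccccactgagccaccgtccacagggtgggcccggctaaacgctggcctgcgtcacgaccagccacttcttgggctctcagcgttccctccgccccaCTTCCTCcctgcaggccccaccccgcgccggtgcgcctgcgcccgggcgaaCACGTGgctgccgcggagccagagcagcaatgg
Mybbp1a, chr11:72441077-72441376, plus strand: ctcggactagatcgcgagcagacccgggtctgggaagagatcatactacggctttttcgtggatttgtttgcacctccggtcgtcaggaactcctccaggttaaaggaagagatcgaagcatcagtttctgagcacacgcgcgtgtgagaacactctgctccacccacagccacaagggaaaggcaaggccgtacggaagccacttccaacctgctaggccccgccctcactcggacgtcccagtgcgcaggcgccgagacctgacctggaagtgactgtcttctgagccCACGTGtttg
Wdr43 and Mybbp1a take part in ribosomal RNA production, and their log2 interactions were -0.59 ± 0.12 (SE; edgeR adjusted p = 0.00262) and -0.49 ± 0.12 (SE; edgeR adjusted p = 0.00906). CACGTG was in 5 of the 20 windows of the list (25%), in 17.3% of windows of all genes below additivity and 9.6% of those above, against 10.5% of all windows. It was in 12% of the mature neutrophil and 6.25% of the secondary granule windows.

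In the list of ATF4 targets and the unfolded protein response, 13 of 25 genes were lower and 4 higher in Asxl1-MT2/T618I than in Empty/T618I cells, and 9 were below additivity and 2 above (median -0.15). Over all genes tested 18.5% were lower and 25.4% higher in that comparison, and 5.51% were below additivity and 14.1% above. The 9 were the chaperones and folding genes Hspa5, Hsp90b1, Pdia4, Calr, Creld2 and Manf and the serine and one-carbon enzymes Psat1, Phgdh and Shmt2, and the 2 above were Slc7a11, the cystine transporter, and Ddit4, an inhibitor of mTORC1. Leaving out 1 library at a time left 3 to 9 below, with 3 without Asxl1-MT2/T618I A or Empty/Empty B, 4 without Asxl1-MT2/T618I B or Asxl1-MT2/Empty B and 5 without Empty/T618I B. The 2 above became 1 or 0 without any of 10 libraries. Hsp90b1 stood at 1000, 1002 and 1212 CPM in Asxl1-MT2/T618I, at 1548, 1606 and 1908 CPM in Empty/T618I, at 1807, 1910 and 2257 CPM in Asxl1-MT2/Empty and at 1777, 1797 and 2256 CPM in Empty/Empty. Library C was the highest of each group, yet the Asxl1-MT2/T618I libraries were below all others, with a log2 interaction of -0.69 ± 0.17 (SE; edgeR adjusted p = 0.00738). Pdia4, a disulfide isomerase, averaged 236 ± 27.5 CPM in Asxl1-MT2/T618I, 328 ± 19.5 CPM in Empty/T618I, 449 ± 27 CPM in Asxl1-MT2/Empty and 440 ± 25.7 CPM in Empty/Empty (SD, n = 3 each) and had -0.50 ± 0.12 (SE; edgeR adjusted p = 0.00936). Hspa5, the chaperone BiP, averaged 1132 ± 99.3 CPM in Asxl1-MT2/T618I, 1586 ± 109 CPM in Empty/T618I, 2026 ± 222 CPM in Asxl1-MT2/Empty and 2041 ± 193 CPM in Empty/Empty (SD, n = 3 each), with a log2 interaction of -0.48 ± 0.14 (SE; edgeR adjusted p = 0.0232) whose call was lost when any of 5 libraries was left out (adjusted p up to 0.0635).

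Some other genes that T618I alone raised were brought down beside Asxl1-MT2. Scd1, which desaturates fatty acids, stood at 13.3, 16.6 and 13.2 CPM in Asxl1-MT2/T618I, at 43.1, 64 and 71.9 CPM in Empty/T618I, at 6.03, 13.1 and 22.4 CPM in Asxl1-MT2/Empty and at 13.3, 9.74 and 16 CPM in Empty/Empty. It was high in Empty/T618I, and the other 3 groups overlapped, with a log2 interaction of -2.14 ± 0.43 (SE; edgeR adjusted p = 0.00218). Car2, a carbonic anhydrase of erythroid and other cells, stood at 19.2, 19.4 and 20.6 CPM in Asxl1-MT2/T618I, at 54.9, 60.9 and 82.1 CPM in Empty/T618I, at 27.3, 29.1 and 31.3 CPM in Asxl1-MT2/Empty and at 39.9, 36 and 37.1 CPM in Empty/Empty. Here the Asxl1-MT2/T618I libraries were the lowest and the log2 interaction was -1.37 ± 0.18 (SE; edgeR adjusted p = 6.68e-05). Tal1, a factor of stem, erythroid and mast cells, averaged 52.7 ± 4.31 CPM in Asxl1-MT2/T618I, 95.6 ± 7.77 CPM in Empty/T618I, 49.8 ± 3.01 CPM in Asxl1-MT2/Empty and 58.3 ± 3.23 CPM in Empty/Empty (SD, n = 3 each), with a log2 interaction of -0.63 ± 0.13 (SE; edgeR adjusted p = 0.00214). Car2 and Tal1 were the 2 of 11 megakaryocyte and erythroid genes below additivity, and none was above. Over all genes tested 5.51% were below and 14.1% above. Of 24 genes of cholesterol synthesis 3 were below and none above (median -0.16). Below were 1 without Asxl1-MT2/T618I A or B, Empty/T618I B, Asxl1-MT2/Empty B or C, or Empty/Empty B, and 5 without Asxl1-MT2/Empty A, while 2 were above without Empty/Empty C. Of the 10 largest negative interactions past the level filter, Col18a1, Scd1, Rcbtb1, Asb13, Tmem9, Lgr4, Hs3st3b1, Ces2g, Dsel and Top1mt, the values ran from -2.37 to -1.62. Tmem9 was not brought down, with an Asxl1-MT2 effect of 0.26 in T618I cells (edgeR adjusted p = 0.394) and 2.19 in Empty cells. Lgr4 was not called with T618I alone (log2 0.53 (edgeR adjusted p = 0.162)).

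Stem and progenitor genes were divided, with 5 of 23 below additivity, 2 above (Hoxa9 and Hhex) and a median of -0.28. Over all genes tested 5.51% were below and 14.1% above. Hmga2, a chromatin protein of fetal stem cells, stood at 11, 17.2 and 16.2 CPM in Asxl1-MT2/T618I, at 35.4, 28.5 and 32.1 CPM in Empty/T618I, at 19.4, 26.6 and 30.6 CPM in Asxl1-MT2/Empty and at 30.6, 29.8 and 29.1 CPM in Empty/Empty. Its log2 interaction was -0.88 ± 0.23 (SE; edgeR adjusted p = 0.0119). Msi2, an RNA-binding protein of stem cells, averaged 31.8 ± 4.09 CPM in Asxl1-MT2/T618I, 50 ± 3.55 CPM in Empty/T618I, 51.6 ± 4.21 CPM in Asxl1-MT2/Empty and 56.9 ± 3.85 CPM in Empty/Empty (SD, n = 3 each), with -0.51 ± 0.15 (SE; edgeR adjusted p = 0.02). Meis1, a HOX cofactor, averaged 7.42 ± 1.06 CPM in Asxl1-MT2/T618I, 14 ± 0.926 CPM in Empty/T618I, 8 ± 1.52 CPM in Asxl1-MT2/Empty and 8.45 ± 1.94 CPM in Empty/Empty (SD, n = 3 each) and had -0.83 ± 0.26 (SE; edgeR adjusted p = 0.0309). The Msi2 and Meis1 calls were lost when any of 4 and 5 single libraries was left out, and over these fits 2 to 8 of the 23 were below, with 8 without Asxl1-MT2/T618I C, 3 without Asxl1-MT2/T618I A or Asxl1-MT2/Empty B or C, and 2 without Empty/Empty B. Only 1 was above without any of 9 libraries. Kit, the receptor for stem cell factor, and Cd34 were not called, with log2 interactions of -0.31 ± 0.14 (SE; edgeR adjusted p = 0.139) and 0.16 ± 0.20 (SE; edgeR adjusted p = 0.633). Kit fell with T618I alone (log2 -1.64) and beside Asxl1-MT2 (log2 -1.95).

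Some programmes that T618I switched on strongly showed no called departure. Of 18 mast cell and basophil genes, 0 were called in edgeR, in DESeq2 and in limma voom, and 3 had an unadjusted p under 0.05. The median log2 interaction of the list was 0.44, opposite in sign to the values of Mcpt8 and Gata2 below. T618I alone raised 17 of the 18 (median log2 change 3.58), against 17.6% of all genes tested, and beside Asxl1-MT2 the median T618I effect was 4.14. Asxl1-MT2 lowered 7 of the 18 and raised 1 in T618I cells, against 18.5% lowered and 25.4% raised over all genes tested. In Empty cells it lowered 4 and raised 0, against 0.622% and 1.24%. Mcpt8, a basophil protease, stood at 802, 711 and 789 CPM in Asxl1-MT2/T618I, at 1341, 753 and 1242 CPM in Empty/T618I, at 78.2, 113 and 101 CPM in Asxl1-MT2/Empty and at 104, 80 and 97.6 CPM in Empty/Empty. Empty/T618I library B was low within its group and overlapped the Asxl1-MT2/T618I libraries, and the log2 interaction was -0.59 ± 0.24 (SE; edgeR adjusted p = 0.0991). Gata2, a factor of mast cells and progenitors, is counted in the stem and progenitor list and not in this one. It averaged 224 ± 4.52 CPM in Asxl1-MT2/T618I, 408 ± 99.8 CPM in Empty/T618I, 40.8 ± 1.5 CPM in Asxl1-MT2/Empty and 66.3 ± 5.09 CPM in Empty/Empty (SD, n = 3 each), with a log2 interaction of -0.17 ± 0.19 (SE; edgeR adjusted p = 0.584). The mast cell and basophil list summed to 5984 to 6377 CPM in Asxl1-MT2/T618I, 6692 to 10209 in Empty/T618I, 1267 to 1317 in Asxl1-MT2/Empty and 1732 to 1891 in Empty/Empty. These genes were thus high in both T618I groups beside the neutrophil genes, and their part in the neutrophil result was not tested. Without Empty/T618I library C, 3 of the 18 were above additivity, and without Empty/T618I library B, 3 were below.

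Cell cycle genes also showed no called departure, with 0 of 38 S and G2/M genes in edgeR and in limma voom, 1 below in DESeq2 and 4 at an unadjusted p under 0.05. With library totals alone 3 were below. Mki67 averaged 911 ± 85.7 CPM in Asxl1-MT2/T618I, 1014 ± 265 CPM in Empty/T618I, 705 ± 39.9 CPM in Asxl1-MT2/Empty and 727 ± 107 CPM in Empty/Empty (SD, n = 3 each), with a log2 interaction of -0.11 ± 0.20 (SE; edgeR adjusted p = 0.749), and Mcm2, a subunit of the replicative helicase, had -0.32 ± 0.12 (SE; edgeR adjusted p = 0.0741). Primary granule genes were likewise near additivity, with 2 of 13 above, among them Ctsc, none below and a median of -0.13, and 1 above without any of 8 single libraries. The 2 of 13 are near the 14.1% above over all genes tested. With library totals alone 1 primary granule gene was above and 3 were below. Mpo, myeloperoxidase, stood at 9136, 10484 and 12605 CPM in Asxl1-MT2/T618I, at 12401, 12678 and 10924 CPM in Empty/T618I, at 31426, 30715 and 28439 CPM in Asxl1-MT2/Empty and at 32814, 31625 and 24757 CPM in Empty/Empty. T618I lowered it with and without Asxl1-MT2, and the log2 interaction was -0.18 ± 0.17 (SE; edgeR adjusted p = 0.483). Elane, neutrophil elastase, had -0.44 ± 0.18 (SE; edgeR adjusted p = 0.103).

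Of 29 Polycomb and BAP1 complex genes, 4 were above, among them Ogt and Ezh1, 1 was below (Foxk2) and the median was 0.01, or -0.10 with library totals alone. Over all genes tested 14.1% were above, a share like that of the 4, and there were 2 without Asxl1-MT2/T618I B or Empty/Empty B. Foxk2 lost its call without any of 7 libraries. Ezh1, a histone H3 lysine 27 methyltransferase, averaged 34.7 ± 4.63 CPM in Asxl1-MT2/T618I, 20.7 ± 2.01 CPM in Empty/T618I, 24 ± 2.08 CPM in Asxl1-MT2/Empty and 23.9 ± 0.729 CPM in Empty/Empty (SD, n = 3 each), with a log2 interaction of 0.74 ± 0.17 (SE; edgeR adjusted p = 0.00465). Its relative Ezh2 and Bap1 were not called, with -0.17 ± 0.11 (SE; edgeR adjusted p = 0.314) and -0.06 ± 0.10 (SE; edgeR adjusted p = 0.747). Glycolysis genes had 7 of 24 above and 1, Ldha, below, with 4 above without Empty/Empty A and none below without any of 9 libraries. Pfkfb4, which sets the level of a glycolysis activator, averaged 82.6 ± 12.5 CPM in Asxl1-MT2/T618I, 19 ± 3.76 CPM in Empty/T618I, 49.2 ± 5.25 CPM in Asxl1-MT2/Empty and 31.5 ± 3.91 CPM in Empty/Empty (SD, n = 3 each) and had a log2 interaction of 1.48 ± 0.20 (SE; edgeR adjusted p = 8.65e-05). Of 17 p53 targets 3 were above and none below, near the 14.1% above over all genes tested, with a median of -0.01, and 5 were above without Asxl1-MT2/T618I C. Among the 3 was Trp53inp1 with 1.90 ± 0.22 (SE; edgeR adjusted p = 2.36e-05). Of 6 eosinophil genes 3 were above and none below, and 2 to 5 were above when single libraries were left out, with 5 without Asxl1-MT2/T618I A. One of the 3, Epx, eosinophil peroxidase, lost its call without any of 9 libraries and in DESeq2 and limma voom. Prg2, eosinophil major basic protein, averaged 120 ± 68.8 CPM in Asxl1-MT2/T618I, 105 ± 47.3 CPM in Empty/T618I, 29.1 ± 4.97 CPM in Asxl1-MT2/Empty and 130 ± 30.6 CPM in Empty/Empty (SD, n = 3 each) and was lowest with Asxl1-MT2 alone, with a log2 interaction of 2.36 ± 0.48 (SE; edgeR adjusted p = 0.00225).

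**Figure D4:**
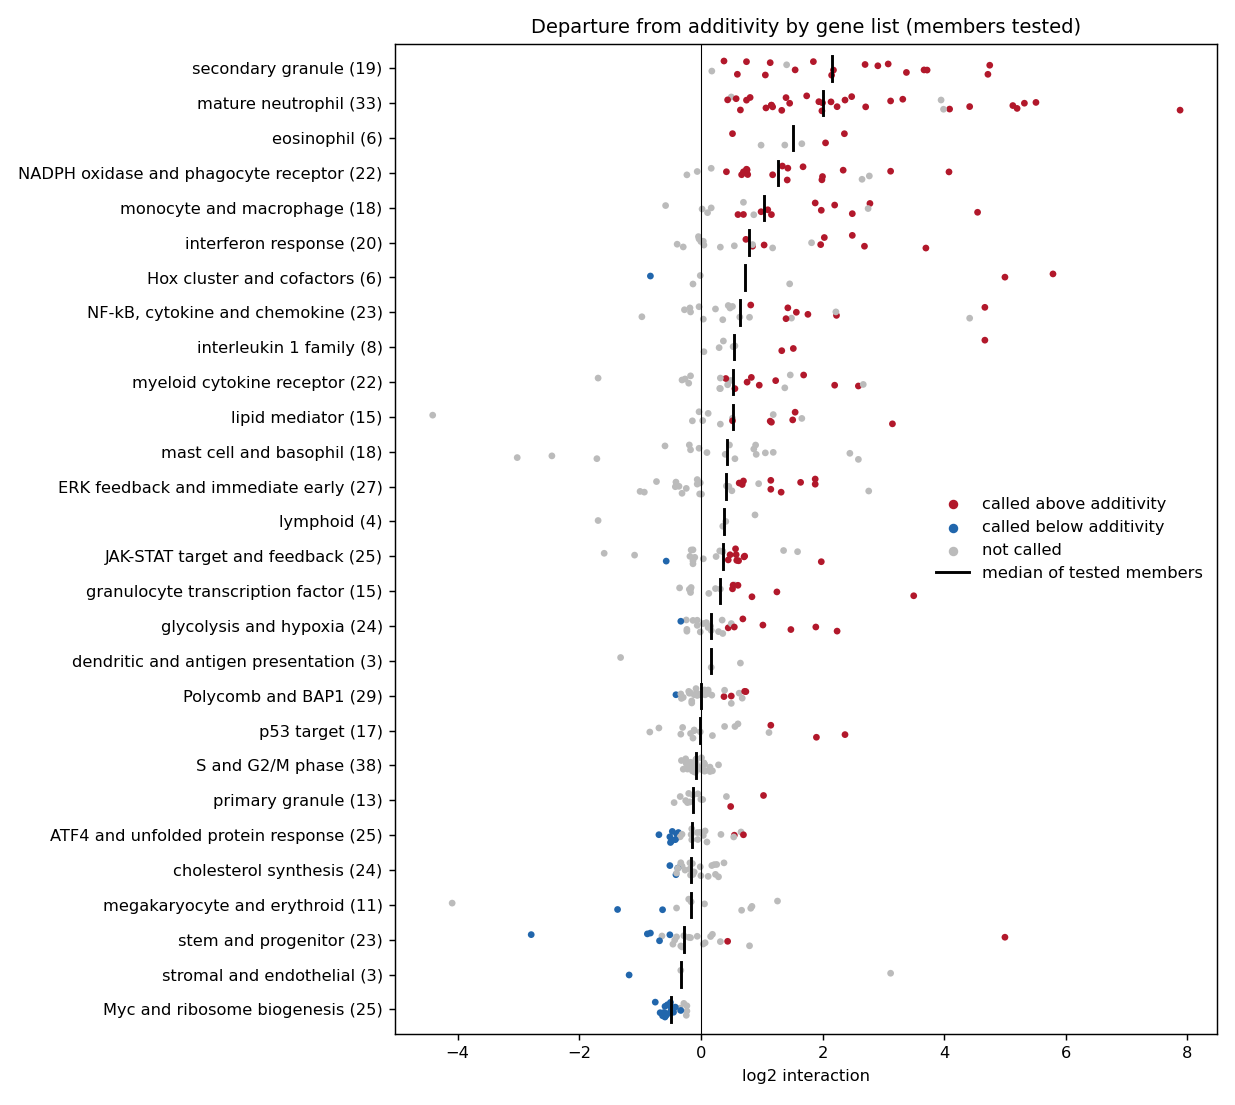
Log2 interaction (horizontal) of the tested members of each gene list (vertical, number tested in brackets), sorted by the median, which is the black bar. Red points were called above additivity, blue below and grey neither. Secondary granule and mature neutrophil genes have medians of 2.15 and 2.00 and nearly all points red, while the Myc and ribosome biogenesis list has a median of -0.49 with 18 of 25 points blue.

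Among the called genes, 26 had 3 or fewer counts in all 3 libraries of some group together. Besides Fpr1, the most abundant were Ceacam10 and Slfn1. Ceacam10, of the CEA adhesion family, had 632, 496 and 374 reads in Asxl1-MT2/T618I, 53, 40 and 27 in Empty/T618I, 1, 0 and 2 in Asxl1-MT2/Empty and 12, 3 and 10 in Empty/Empty. Slfn1, a schlafen family gene, had 937, 727 and 472 reads in Asxl1-MT2/T618I, 93, 58 and 79 in Empty/T618I, 1, 1 and 0 in Asxl1-MT2/Empty and 2, 3 and 3 in Empty/Empty. Both were high in the cells with both constructs and near 0 without T618I.

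The calls depended on the groups being as titled. With Empty/Empty A, then B, then C moved to Empty/T618I, 635, 587 and 1026 genes were above additivity and 76, 49 and 462 below. Genes called for T618I alone then numbered 0, 0 and 995, against 3878 with the groups as titled. Each move put a column with Socs3 at 13.8, 11.9 or 12.4 CPM beside Empty/T618I columns at 151 to 176 CPM. The number above also varied from 1282 to 1731, and the number below from 344 to 909, when single libraries were left out.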

How the data were processed

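The 12 RNA-seq libraries, all from HoxB8 cells, form 4 groups of 3. The authors deposited 1 table of raw counts per gene symbol. Trimmomatic, STAR, DESeq2 and the build mm10 are named in the submitters' processing notes. Versions, roles, counting tool, annotation and strand setting are not given in the sources used here. Values of gene families with near-identical members (Stfa, Mcpt, Ly6, Oas), and of genes that overlap or have antisense partners, are therefore uncertain.

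Of the 24411 symbols in the table, 7965 were at 0 throughout. The filterByExpr function of edgeR 4.0.16 (R 4.3.3) kept 11578, with 99.94% of the counts. A mean for each group was fitted to all 12 libraries with TMM factors and the quasi-likelihood test, with Benjamini-Hochberg adjustment over all genes tested. The SE is the absolute log2 value divided by the square root of F. In simulated data over 11405 genes the interaction test found 35.8% of departures of 1.5-fold, 88.1% at 2-fold and 98.5% at 4-fold, with 12 false calls. The changed genes numbered 67, 67 and 66 in that order, all with a mean of at least 5 CPM. Recovery at lower levels was not simulated.

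Columns were matched to groups by name. Titles number the libraries and columns letter them, so a letter only names a library. Over the 18 pairs of same-lettered libraries of different groups, 7 had correlated deviations from their group means (r over 0.1). The main fit used no block, and a block by column letter gave 1898 genes above additivity and 953 below. Alternatives were DESeq2 1.42.0, limma 3.58.1 (voom), other scalings and filters, and libraries left out or regrouped.

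The comparison, the gene lists and the genes shown were chosen with earlier results of these data known. Genes named by rule were Asxl1, Csf3r, Hoxb8 and Socs3; the 10 largest interactions and the 5 smallest p in each direction with at least 4 counts in each group and a mean of at least 5 CPM in some group; up to 4 called genes per list with the smallest p; and 3 called genes with 3 or fewer counts in a group. Other genes were named after their values were seen. Some genes are counted in the totals and not reported here by name.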

Additional observations from a re-analysis of the deposited data

Results flagged for a closer look

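The Asxl1-MT2 effect differed between T618I cells and Empty cells by the test of the difference itself, edgeR's interaction term, in 1635 genes above additivity and 638 below. These 2 counts are the subject of the text, and the values behind them are given there. No explanation was tested.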

How the results depend on the processing

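With an absolute log2 interaction of at least 1 required, 653 genes were above and 63 below additivity, 364 synergistic and 352 antagonistic. Scaling by library totals alone gave 1393 below. Leaving out 1 library at a time gave 1282 to 1731 above, 344 to 909 below, 704 to 1142 synergistic and 873 to 1777 antagonistic. The number below was 344 without Asxl1-MT2/T618I A, 364 without Empty/Empty B, 416 without Empty/T618I B, and 422 without Asxl1-MT2/Empty B and again without Asxl1-MT2/T618I B. Without the 4 libraries lettered C, an alternative added after seeing the data, 1254 were below and 1988 antagonistic. With Empty/Empty A, then B, then C moved to Empty/T618I there were 635, 587 and 1026 above, 421, 410 and 507 synergistic. With A or B so counted 76 and 49 were below and 290 and 226 antagonistic. The cause of these differences was not tested. The numbers above and below were 1684 and 713 with DESeq2, 1628 and 638 with limma voom, 1622 and 651 with DESeq2-style size factors, 1664 and 653 without the filter, 1521 and 652 with a mean of at least 5 CPM, and 1898 and 953 with a replicate block by column letter. Same-lettered libraries did not all deviate together. Outside Asxl1-MT2/T618I the r of their deviations was 0.21 to 0.29 for letters A and C and -0.03 to 0.07 for B, pairs with Asxl1-MT2/T618I had -0.08 to 0.13, and other letters had -0.31 to 0.16. The block ended no call of the 109 genes named by rule. No sign of these 109 turned with another tool, scaling or filter (95 of them passed 5 CPM), the block, a library or the letter C libraries left out, or on the linear CPM scale, and the regroupings of Empty/Empty libraries were not run per gene. Calls were lost without 9 single libraries for Epx, 8 each for Ctsc and Lss, 7 for Foxk2, 6 each for Ces2g and Insig1, 5 each for Hspa5 and Meis1, 4 each for Msi2 and Mycn and 3 for Cbx2, among others. Genes called for Asxl1-MT2 in Empty cells numbered 359 without the filter, 386 without the letter C libraries, and 5, 4 and 6 with Empty/Empty A, B and C moved. Changes of 1.5-fold were recovered in only 35.8% of simulated cases at this depth, so a gene not called may still depart from additivity.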
